A study of Gallus gallus with 8 samples.

Results

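Chromatin accessibility in chicken embryonic retinal pigment epithelium (RPE) was compared between embryonic day 5 (E5) and embryonic day 4 (E4) in eyes that had received no surgery. The comparison used the 4 developing libraries of 8 in the series, namely E5 RPE replicates 1 and 2 and E4 RPE replicates 1 and 2, and took in all 89823 open regions that held any length. E4 embryos were at stage 24 of the Hamburger Hamilton series and E5 embryos at stage 26, and each library was made from RPE sheets of 2 embryos. No agent, allele or transgene was applied to these 4 libraries. The other 4 libraries, made at both stages 6 h after retinectomy with beads carrying fibroblast growth factor 2 (6hPR+FGF2), entered the fit only to estimate the spread between replicates. The eggs were White Leghorn by the sample labels and specific pathogen free eggs of another supplier by the study's methods. The whole sheet was taken without sorting, so a region that opened in each cell and a region carried by a larger share of the cells cannot be told apart.

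The RPE is a single sheet of pigmented cells behind the neural retina, which it supports by recycling visual pigment, moving ions and water and taking up shed photoreceptor tips. In the chick, RPE of the earlier stage can turn into neural retina when the retina is removed and fibroblast growth factor 2 is supplied, and this ability is lost about a day later. In the assay (ATAC-seq) a transposase inserts adapters where DNA is not packed on nucleosomes, so that reads collect at promoters and at distal elements such as enhancers. An open region is a stretch that was called accessible in at least one library and merged with its neighbours across libraries.

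Reads within open regions ran from 34595299 to 72884966 over the 4 libraries, with E4 RPE replicate 1 the shallowest. The regions covered 74.6 Mb with a median width of 540 bp, on 34 chromosomes. Levels are normalized read counts per region, and changes are differences of log2(normalized count + 1), E5 minus E4. The median SD between replicates on this scale was 0.21 at E4 and 0.13 at E5. The markers fixed for the sheet and for other cells were read only from the regions nearest to them. Only the annotated stretches of chromosome 1 described below were covered. TFEC, a relative of the pigment cell regulator MITF, held a summed normalized count of 4309 and 4632 at E4 and 4463 and 4750 at E5 over 10 regions, so RPE libraries of both stages were open there. Regions nearest to the single endothelial marker ERG summed to 2130 and 2030 at E4 and 2683 and 2595 at E5, those of the blood marker RUNX1 to 5819 and 6330 at E4 and 5769 and 5895 at E5. Those of the 3 neural markers FEZF1, OLIG2 and GRM8 summed to 7559 and 7892 at E4 and 7499 and 6933 at E5, and those of the mesenchymal marker HGF to 4886 and 5318 at E4 and 3482 and 3534 at E5. Every marker with a nearest region in these stretches held reads. No region there was nearest to COL8A1, so its level was not read. The part of other cells in the results was not tested.

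More regions were called higher at E5 than at E4. Of the 89823 regions, 3771 were called differentially accessible regions (DARs) by limma at an adjusted p of 0.05, or 4.2%. Accessibility rose in 2542 of them (2.83%) and fell in 1229 (1.37%), so 67.4% of the calls were higher at E5. This tilt was smaller under other scalings and tools. With libraries scaled to equal totals 1786 rose and 1248 fell, and with quantile normalization 2710 and 1759. With edgeR 2450 rose and 1654 fell, and with DESeq2 4728 and 3276. In the regions that rose the median level went from 211 normalized counts at E4 to 502 at E5, with a median log2 fold change of 1.20. In the regions that fell it went from 334 to 129, with a median log2 fold change of -1.34. Regions not called had a median of 154 at both stages. The median log2 fold change over all regions was 0.02, and -0.05 with equal totals. The change was at least 1 log2 unit in 1777 of the regions that rose (69.9%) and in 966 of those that fell (78.6%), and at least 2 log2 units in 182 and 130. No DAR was at 0 at the stage where it was lower. The mean at that stage was under 50 normalized counts in 280 of the regions that rose and in 257 of those that fell, so most DARs were above this level at both stages.

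The number of calls fell when any of the 4 developing libraries was left out, and least without E4 RPE replicate 2. When E4 RPE replicate 1 was left out limma called 0 regions, with 12068 at an unadjusted p under 0.05, and when E4 RPE replicate 2 was left out it called 2134. Leaving out E5 RPE replicate 1 gave 6 calls, and leaving out replicate 2 of that stage gave 83. The replicates of the 2 stages did not overlap in any of the 3771 DARs, so leaving out 1 library could not turn their direction. Such separation was common, since both E5 libraries lay above both E4 libraries in 30.3% of all regions and below them in 24.1%. On whole reads recovered from the same values, edgeR called 4104 regions and DESeq2 called 8004. All 3 tools called 3524 regions, which is 93.5% of the limma calls, 85.9% of the edgeR calls and 44.0% of the DESeq2 calls.

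**Figure D1:**
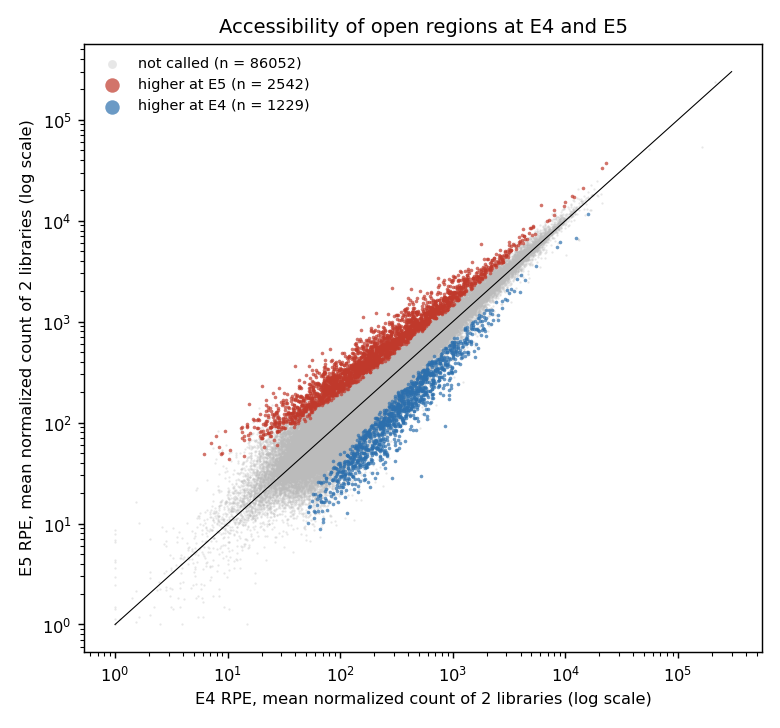
Mean normalized count of each open region at E4 (horizontal axis) and E5 (vertical axis), both on log scales and with means under 1 drawn at 1. The 2542 regions higher at E5 and the 1229 higher at E4 lie along both sides of the line of equal level, and none of either lies at 0.

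DARs were wider than the rest. Median width was 820 bp for the regions that rose, 690 bp for those that fell and 520 bp for those not called. On autosomes, with each class bound counted in the narrower class, 0.87% of regions of up to 250 bp were DARs, 2.86% of those of 250 to 500 bp and 6.64% of those of 500 to 1000 bp. The share was 6.27% from 1000 to 2000 bp, 4.50% from 2000 to 5000 bp and 6.07% over 5000 bp. Which width class was called most depended on the scaling. Over 5000 bp, a class of 511 regions, the share was 9.59% with equal totals and 9.98% with quantile normalization. At 500 to 1000 bp it was 5.14% and 6.54% under these 2 scalings. Width went with signal, as the median level was 51.3 normalized counts in the narrowest class and 4315 in the widest. Within the second signal quartile the share called rose at each step, from 0.66% at up to 250 bp to 3.20% at 250 to 500 bp and 4.95% at 500 to 1000 bp. Within the third signal quartile 5.11% of regions of 250 to 500 bp, 7.05% of those of 500 to 1000 bp and 6.44% of those of 1000 to 2000 bp were called. Within the highest quartile the share was 8.10% at 500 to 1000 bp, 6.36% at 1000 to 2000 bp, 4.63% at 2000 to 5000 bp and 7.71% over 5000 bp. The share of DARs thus climbed with width in the second quartile and did not climb steadily in the upper quartiles. In the lowest quartile it was 0.89% at up to 250 bp and higher at 250 to 500 bp. It was lowest there, 0.16%, at 500 to 1000 bp. A quartile did not hold signal fixed. In the second quartile the median level rose with width, from 84.7 to 106 and then 133 normalized counts. Whether width mattered apart from signal was not tested.

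Signal level set apart both the number and the direction of the calls. From the lowest to the highest quartile 1.18%, 3.38%, 6.65% and 6.23% of autosomal regions were DARs, and 53.2%, 57.3%, 64.6% and 78.2% of those DARs were higher at E5. The median SD between replicates at E4 fell from 0.31 in the lowest quartile to 0.12 in the highest, and its part in the number of calls was not tested. The rise in the share higher at E5 held in order when libraries were scaled to equal totals, where it was 41.0%, 47.7%, 55.2% and 69.1%. With quantile normalization it was flatter at 52.8%, 56.9%, 60.0% and 66.4%. By width the share higher at E5 went from 53.9% at up to 250 bp to 80.7% at 2000 to 5000 bp. These 2 shares were 39.4% and 69.5% with equal totals and 58.4% and 63.3% with quantile normalization, so most of the difference by width was not seen under that scaling. In regions over 5000 bp the share was 71.0% and with quantile normalization 56.9%. Within signal quartiles the share higher at E5 did not climb with width in the same way. In the second quartile it fell, from 75% of 8 DARs at up to 250 bp to 61.9% at 250 to 500 bp and 45.7% at 500 to 1000 bp. In the third it was 73.2%, 65.8% and 51.5% over the 3 classes from 250 to 2000 bp. In the highest it was 74.6%, 78.9%, 80.9% and 71.0% over the 4 classes from 500 bp up.

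The largest changes of wide regions were read among DARs whose replicates did not overlap, so a gap between the stages was a condition of the choice. The region chr3:5617990-5619950 (1960 bp) had 281 and 297 normalized counts at E4 and 2069 and 2259 at E5, a log2 fold change of 2.90 ± 0.23 (SE, n = 2 per stage, limma adjusted p = 0.0026). Both E5 libraries lay far above both E4 libraries, and this region was still called without either E5 library. The region chr1:93260280-93262780 had 332 and 482 at E4 and 1542 and 1441 at E5, with a log2 fold change of 1.89. Among regions over 5000 bp, chr18:9891250-9904420, which is 13170 bp wide, had 5571 and 6483 at E4 and 13144 and 15233 at E5, a log2 fold change of 1.24. The region chr11:17182220-17184430 had 926 and 625 at E4 and 237 and 154 at E5, with a log2 fold change of -1.99. The region chr2:67149390-67150680 had 1218 and 645 at E4 and 189 and 150 at E5, with a log2 fold change of -2.39. The largest fall over 5000 bp, at chr18:11009300-11016640, went from 2430 and 2127 to 1202 and 883. No gene is given to these regions, because the annotation used here covered only the stretches of chromosome 1 described below.

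Chromosome classes differed in the direction of their DARs. The share called was alike in all autosomal classes but the last given here, which held 51 DARs among 1958 regions. The share of DARs was 4.41% on the macrochromosomes (1 to 5), 4.50% on the intermediate chromosomes (6 to 10), 4.37% on the microchromosomes (11 to 28, without 16 and 25) and 2.60% on chromosomes 16, 25 and 30 to 33, here termed dot chromosomes. Of these DARs 64.1%, 66.6%, 73.5% and 80.4% were higher at E5. With equal totals the shares were 55.3%, 57.5%, 66.0% and 68.4%, and in the fit of the 4 developing libraries alone the dot chromosomes, with 59.3%, lay below the macrochromosomes, with 65.2%. Microchromosomes are gene dense in birds, and their regions were wider (median 610 bp against 500 bp on macrochromosomes) and stronger (median level 185 against 151 normalized counts). Among single autosomes with at least 1000 regions the share called ran from 3.41% on chromosome 20 to 5.34% on chromosome 10. The share of DARs higher at E5 was 85.1% on chromosome 19, 84.1% on chromosome 17 and 56.3% on chromosome 2.

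The largest change in each direction was read for every chromosome class. On macrochromosomes the rise at chr2:103231990-103232340 went from 5.66 and 27.7 normalized counts to 107 and 109, and the fall at chr4:77806340-77806930 went from 720 and 332 to a mean of 29.5 (log2 fold change -4.01). On intermediate chromosomes the rise at chr8:7483090-7483600 went from 21.2 and 19.6 to 271 and 185, and the fall at chr6:30507420-30507920 went from 269 and 228 to 43.8 and 38.3. On microchromosomes the rise at chr19:3592510-3592770 went from 7.07 and 23.6 to 175 and 128, and the fall at chr13:11624440-11625350 went from 1071 and 645 to 122 and 63.3. On dot chromosomes the rise at chr25:3659900-3660230 went from 18.4 and 42.4 to 138 and 164, and the fall at chr25:2634280-2635940 went from 1485 and 841 to 413 and 356. These 4 rises were of regions of 260 to 510 bp with at most 42.4 normalized counts in any E4 library. The falls started from higher levels, and in 3 of the 4 E4 RPE replicate 1 was well above replicate 2.

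By distance to the nearest other region the share of DARs was 3.17% at up to 500 bp, 4.40% at 500 to 2000 bp, 4.89% at 2000 to 10000 bp, 4.26% at 10000 to 50000 bp and 3.99% beyond 50000 bp. With equal totals the shares at the ends were 2.67% at up to 500 bp and 2.15% beyond 50000 bp, so which class was called least depended on the scaling. Of the DARs closest to another region 72.3% were higher at E5, against 61.5% of the 13 DARs more than 50000 bp from any other region. With equal totals these shares were 62.4% and 57.1%, and with quantile normalization 62.7% and 47.1%.

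**Figure D2:**
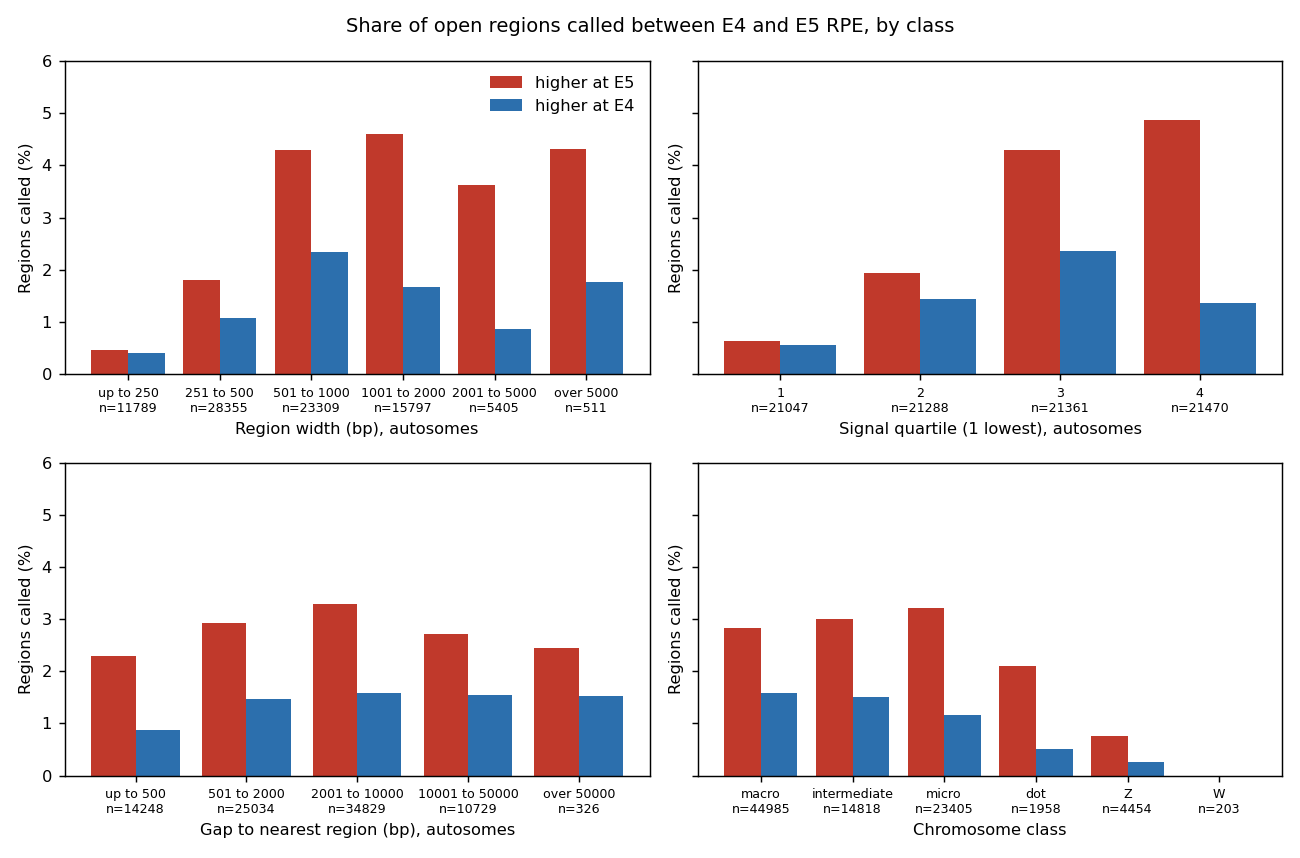
Percent of open regions called higher at E5 (red) and higher at E4 (blue) by region width, signal quartile, gap to the nearest region and chromosome class, with the number of regions under each pair of bars. Bars start at 0. In every class that held a call the red bar is the taller, and the bars of the lowest signal quartile are 0.63% and 0.55% against 4.87% and 1.36% in the highest.

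A DAR was more often next to a DAR of the same direction than the share of all regions, and for rises most so at short range. Among 85134 pairs of adjacent autosomal regions both members rose in 170, both fell in 63 and they went opposite ways in 36. Next to a region that rose, the adjacent region had also risen in 15.9% of cases when the gap was at most 500 bp, against 2.21% of all regions in such pairs. The share was 8.36% at 500 to 2000 bp, 6.30% at 2000 to 10000 bp, 4.36% at 10000 to 50000 bp and 3.23% beyond that, where the share of all regions was 2.65%. Next to a region that fell, the adjacent region had also fallen in 4.38%, 3.98%, 5.86%, 5.37% and 2.63% of cases over the same distances, against 0.86% to 1.62% of all regions. These shares rest on 3, 9, 30, 20 and 1 pairs in which both fell. For rises the share beyond 50000 bp rests on 2 pairs. Over all pairs the log2 fold changes of neighbours correlated across regions with Pearson's r of 0.43 at up to 500 bp, 0.24 at 500 to 2000 bp and 0.08 beyond 50000 bp. Neighbours share a library and its depth, and close neighbours can be parts of one broad element, so these correlations describe the map and are not replicate evidence.

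Most DARs stood alone. Of the regions that rose 2189 had no adjacent region rising with them, while 130 runs held 2 adjacent rising regions, 17 held 3 and 2 held 4. Of those that fell 1098 stood alone, with 50 runs of 2, 5 of 3 and 1 of 4. One run of 4 rises lay at chr6:20992190-21011610, over 19420 bp. Its strongest member, chr6:20995570-20997820, had 1161 and 1162 normalized counts at E4 and 3380 and 2967 at E5, with a log2 fold change of 1.45, and the other 3 had log2 fold changes of 0.97 to 1.28. The other run of 4 rises, at chr21:6343310-6360180, was shallower, with log2 fold changes of 0.58 to 1.19. The run at chr12:11083690-11116190 held 3 rises with a summed log2 fold change of 4.73, against 4.70 at the chr6 run, led by chr12:11095050-11095850 with 94.8 and 137 at E4 and 449 and 415 at E5. The only run of 4 falls lay at chr7:5152470-5168540, where all members lost between 1.08 and 1.44 log2 units. Its highest member, chr7:5154310-5155030, had 945 and 1062 at E4 and 362 and 526 at E5. Runs of 3 falls with the largest summed change lay at chr1:90211820-90244270 and chr3:34688530-34707310, and in the first of these the 2 E4 libraries differed, with 1814 and 943 in chr1:90242830-90244270 against 545 and 409 at E5.

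On the scale of 1 Mb, DARs were spread over the genome. Of 976 autosomal windows 95 held no DAR, and the median was 3. The windows described here were picked after their counts were seen, and ranking by count favours windows dense in regions. Rises were most numerous on chromosome 18 from 4 to 5 Mb, with 16 among 162 regions (9.88%). Next came chromosome 13 from 17 to 18 Mb, with 16 among 183 (8.74%), against 2.83% of all regions. Falls were most numerous on chromosome 3 from 24 to 25 Mb, with 9 among 104 regions (8.65%) and 4 rises beside them. Chromosome 10 from 16 to 17 Mb held 9 among 135 (6.67%) and 1 rise, against 1.37% of all regions that fell.

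Nearest genes could be given for 2 stretches of chromosome 1, from 20010 to 27315070 and from 100000000 to 119137540. The first held 1926 regions, of which 46 rose and 38 fell (4.36% called), and the second 1107 regions, of which 21 rose and 3 fell (2.17%). A gene symbol belonged to 65 of these 108 DARs. In the first stretch introns held 51 DARs among 973 regions (5.24%), intergenic sequence 28 among 703 (3.98%), promoters 3 among 139 (2.16%), exons 1 among 59 and transcript ends 1 among 52. Promoters had the highest median level, 1076 normalized counts against 123 in introns, and the smallest median absolute log2 fold change, 0.12 against 0.34. Of the intergenic DARs 42.9% were higher at E5 and of the intronic DARs 58.8%. A nearest gene is an annotation of position and not a measured target of the region.

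Several falls lay near class 3 semaphorins. These are secreted guidance proteins that steer axons, vessels and migrating cells, through neuropilin and plexin receptors. The genes below are part of a guidance list that was fixed with earlier results of these data known. An excess of falls near them therefore describes a picked set and is not a test. Of the 83 regions nearest to the 4 class 3 semaphorin genes of this stretch (SEMA3A, SEMA3C, SEMA3D and SEMA3E) 8 fell (9.64%) and 1 rose, where 1.63% of the other 1843 regions of the stretch and 1.37% of all regions fell. Their median log2 fold change was -0.15, against 0.02 over all regions. It lay between -0.23 and -0.14 under every other scaling, filter and pseudocount and under edgeR and DESeq2. The lowest value came with equal totals, where the median over all regions was -0.05. With 1 developing library left out it ran from -0.17 without E4 RPE replicate 2 to -0.09 without E5 RPE replicate 2. DESeq2 called 3 rises and 13 falls among these regions, and 4728 rises and 3276 falls among all 89823 regions. The shares of 1.63% and 1.37% given above are those of limma. Leaving out the first replicate of either stage left 0 calls among them, leaving out E4 RPE replicate 2 left 1 rise and 2 falls, and leaving out E5 RPE replicate 2 left 1 fall.

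Near SEMA3D 4 of 24 regions fell. The intergenic region chr1:9004480-9004840 had 136 and 135 normalized counts at E4 and 26.9 and 43.3 at E5, a log2 fold change of -1.96 ± 0.35 (SE, n = 2 per stage, limma adjusted p = 0.020). The intronic region chr1:8912790-8913330 had 157 and 124 at E4 and 38.9 and 46.7 at E5, and in both regions the 2 stages were well apart. The remaining falls, at chr1:8971800-8972100 and chr1:9050110-9050320, were small elements that fell from means of 66.3 and 51.8 to 19.3 and 13.0. Near SEMA3A 3 of 32 regions fell. The intergenic region chr1:9153090-9153860 had 587 and 686 at E4 and 208 and 257 at E5, with a log2 fold change of -1.45 (limma adjusted p = 0.011). The intronic region chr1:9453060-9453600 had 440 and 426 at E4 and 141 and 194 at E5 (-1.38, limma adjusted p = 0.010), and it was the semaphorin region still called without E5 RPE replicate 2. The region chr1:9168700-9169460 went from 235 and 182 to 84.2 and 51.7. Near SEMA3E 1 of 19 regions fell, an intronic element at chr1:9688850-9689780 with 287 and 390 at E4 and 129 and 162 at E5.

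SEMA3C, the fourth class 3 semaphorin of the stretch, went the other way. Of its 8 regions 1 rose, the intronic region chr1:11233570-11234660. It had 219 and 325 normalized counts at E4 and 581 and 645 at E5 (log2 fold change 1.20 ± 0.27, SE, n = 2 per stage, limma adjusted p = 0.038). The log2 fold change was positive in 7 of the 8, where 47.6% of all regions were negative. PLXNA4, a plexin receptor for class 3 semaphorins, had 1 fall among 21 regions, at chr1:3050490-3050900 in an intron, with 202 and 179 at E4 and 43.8 and 68.3 at E5. RELN, a secreted glycoprotein that guides migrating neurons, had 1 rise among 11 regions. That intronic region, chr1:13433320-13433600, had 28.3 and 60.3 at E4 and 201 and 164 at E5, the largest rise among the annotated regions by the rule for named regions (2.11). Over all 122 regions nearest to the 8 genes of the semaphorin, plexin and guidance list, 2 rose and 9 fell (9.02% called, against 4.2% of all regions), with a median log2 fold change of -0.11 against 0.02 over all regions. No region near PLXNB2 or DSCAM was called.

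**Figure D3:**
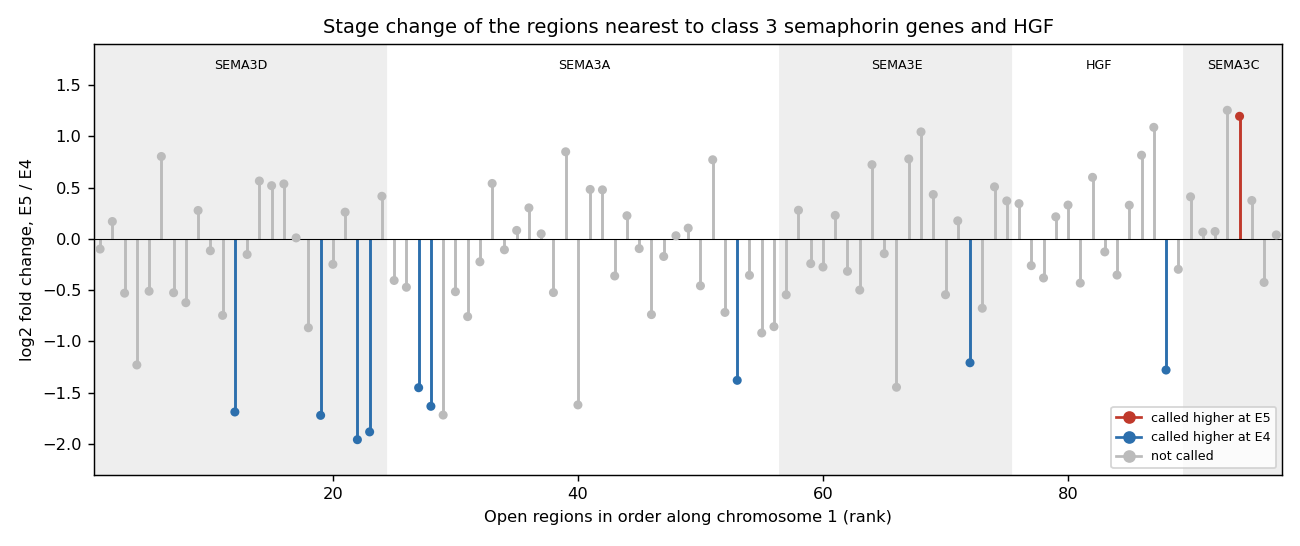
Log2 fold change (E5 over E4) of the 97 regions nearest to SEMA3D, SEMA3A, SEMA3E, HGF and SEMA3C, in their order along chromosome 1. Blue lines are the 9 regions called higher at E4, the red line is the 1 region called higher at E5, near SEMA3C, and grey lines were not called.

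Between these semaphorin genes lies HGF, the ligand of the receptor kinase MET, which promotes growth and movement of epithelial cells. An intronic region of HGF, chr1:10828410-10829910, was the strongest fall of this neighbourhood in level. It had 2486 and 2556 normalized counts at E4 and 977 and 1104 at E5, a log2 fold change of -1.28 ± 0.12 (SE, n = 2 per stage, limma adjusted p = 0.0049). The replicates of each stage lay close together and far from those of the other stage, and the region was still called without E5 RPE replicate 2. The other 13 HGF regions were not called, and their log2 fold changes went up to 1.09. HGF was also fixed as a mesenchymal marker, and this region accounts for most of the drop in its summed level given above. None of the 5 MET regions was called. In the list of HGF, MAPK and phosphatase genes 1 of 44 regions rose and 1 fell (4.55%, close to the 4.2% of all regions). The rise was near PTPN12, a tyrosine phosphatase of the cell cortex, from 50.9 and 66.0 at E4 to 124 and 165 at E5. No region near MAPK11, MAPK12 or PTPRZ1 was called.

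In the Wnt, Norrin and Hedgehog list 2 of 27 regions were called (7.41%, against 4.2% of all regions, a difference of about 1 region), and both were introns of TSPAN12, the tetraspanin that assists Norrin signalling through Frizzled and is mutated in a hereditary disorder of retinal vessels. They lie 4420 bp apart and went opposite ways. The region chr1:23612750-23613120 rose from 32.5 and 51.4 normalized counts to 122 and 142, with a log2 fold change of 1.67. The region chr1:23617540-23618070 fell from 363 and 227 to 112 and 81.7, with a log2 fold change of -1.58. MAGI2, a scaffold protein of cell junctions and synapses, likewise had 1 intronic rise, from 77.8 and 180 to 364 and 395, and 1 intronic fall, from 332 and 432 to 109 and 156, among 22 regions. No region near WNT2, WNT16, SMO or NDP, the gene of Norrin itself, was called.

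Among transcription factor genes 2 of 83 regions rose and 1 fell (3.61%, close to the 4.2% of all regions). The rise near TFEC, at chr1:25501150-25501700, had 60.8 and 96.2 normalized counts at E4 and 257 and 201 at E5, a log2 fold change of 1.56 ± 0.32 (SE, n = 2 per stage, limma adjusted p = 0.031). TFEC is expressed in pigment cells, and 9 other regions nearest to it were not called, including the strongest, which had means of 1848 and 1996. The rise near BCOR, a transcriptional corepressor needed for eye development in humans, was small in fold and precise, from 1158 and 1111 to 1699 and 1666 (0.57, limma adjusted p = 0.033). The fall lay near GATA3, a zinc finger factor used in several lineages, where chr1:4951960-4952960 went from 918 and 1040 to 470 and 627. The log2 fold change was negative in 17 of the 19 GATA3 regions, against 47.6% of all regions, and its promoter was level at means of 1580 and 1573. OLIG2, FEZF1, SIM2, FOXP2, NRF1 and ETS2 had no called region.

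The lists of ion channel, glutamate receptor, cell cycle and matrix genes held so few regions that the 4.2% called over all regions amounts to only 1 or 2 in each, and their counts were near that share. Of 43 regions near the 11 ion channel and transporter genes 0 were called, and their median log2 fold change was 0.06. Of 32 regions near glutamate receptor genes 1 fell, in an intron of GRM3, from 156 and 181 normalized counts to 50.2 and 64.2. Near GRM8 the log2 fold change was negative in 13 of 14 regions, against 47.6% of all regions, and none was called. The other genes of that list went the other way, with a positive log2 fold change in 10 of 14 regions near GRM3 and 3 of 4 near GRIK1. Of 30 regions near cell cycle and replication genes 1 fell, in an intron of POT1, which protects chromosome ends, from 134 and 123 to 32.5 and 39.2. Of 53 regions near matrix, adhesion and junction genes 1 fell, in an intron of the laminin gene LAMB4, from 431 and 630 to 229 and 193. Near retinal disease genes 2 of 28 regions rose and 1 fell (10.7%, against 4.2% of all regions). Besides the pair at TSPAN12, a rise was nearest to NYX, which encodes nyctalopin of retinal bipolar cells, in an intron of the neighbouring gene CASK. It went from 127 and 131 to 337 and 338, with a log2 fold change of 1.38 (limma adjusted p = 0.016). All 7 NYX regions had a positive log2 fold change, where 47.6% of all regions were negative. Regions of 1 gene are neighbours, so such sign counts are not independent evidence.

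By size of change the annotated regions that rose were led by RELN and by AHCYL2. The AHCYL2 region, chr1:1374310-1374640, was one of the 3 promoter DARs of the first stretch and had 80.6 and 70.1 normalized counts at E4 and 253 and 267 at E5 (1.78, limma adjusted p = 0.013). It is 330 bp wide, and its replicates of both stages lay close together. Rises of 1.45 to 1.63 followed near PIM3, a serine/threonine kinase, near TRABD, near CRELD2, a protein of the endoplasmic reticulum, near FGL2, a secreted fibrinogen relative, and near TBC1D22A. The TRABD region had the highest level of these, with 164 and 183 at E4 and 535 and 520 at E5. A second intronic TRABD region, chr1:20385370-20385890, fell from 222 and 220 to 120 and 125, with a log2 fold change of -0.85. In the second stretch rises lay near PDXK, the kinase that makes active vitamin B6, from 43.8 and 69.3 to 180 and 135, and near TMPRSS15, from 62.2 and 111 to 222 and 248. Of the genes with more than 1 DAR in that stretch, ABCG1, a cholesterol exporter, had 2 rises among 7 regions, the stronger in level going from a mean of 400 to 769. The endothelial marker ERG had 1 rise among 15 regions, chr1:109041650-109042810, from 386 and 443 to 874 and 884. This region accounts for most of the rise in the summed level of ERG given above. Of all regions 2.83% rose, the share to set beside these counts at ABCG1 and ERG.

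Further annotated DARs fell outside the rule for named regions and are given here after their values were seen. In the second stretch rises lay near RCAN1, an inhibitor of calcineurin, from a mean of 383 normalized counts at E4 to 945 at E5, and near SOD1, the cytosolic superoxide dismutase, from 453 to 935. One near TIAM1, an exchange factor for the small GTPase Rac, went from 938 to 1617. Of the 3 falls in that stretch none was nearest to a gene with a symbol. In the first stretch rises lay near LHFPL3, from 238 to 575, near KMT2E, a chromatin protein of the trithorax family, from 57.0 to 157, and near MDFIC, a regulator of transcription factors, from 54.8 to 139. In the introns of EXOC4, a subunit of the exocyst that docks secretory vesicles, 2 regions rose, from 196 to 361 and from 734 to 1189, and 1 fell, from 462 to 202. A region in an intron of LAMB1, a laminin subunit of basement membranes, was nearest to DLD and fell from 438 to 215.

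The annotated falls outside the semaphorins were led by POT1 and by an intergenic region near DMTF1, a transcription factor that binds D-type cyclins, from 91.9 and 161 to 34.0 and 34.2. The highest in level of the 12 largest annotated falls lay in an intron of CPED1 nearest to gga-mir-1645, at chr1:23468960-23469810, with 786 and 775 normalized counts at E4 and 248 and 319 at E5 (-1.47, limma adjusted p = 0.0074). Of all 71 named regions 42 were still called when E4 RPE replicate 2 was left out and 0 when E4 RPE replicate 1 was. Leaving out replicate 1 of the E5 pair kept 2 and leaving out replicate 2 kept 8.

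**Figure D4:**
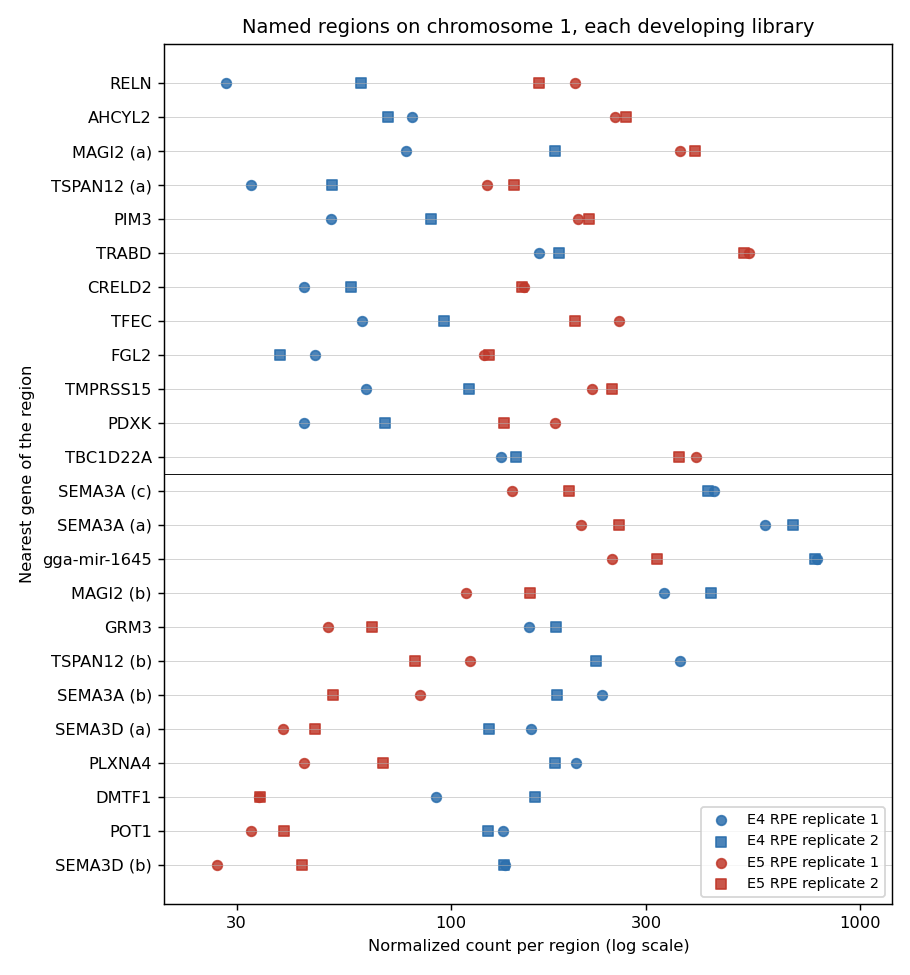
Normalized count (log scale) of the 12 annotated rises and 12 annotated falls with the largest change on chromosome 1 in each of the 4 developing libraries, blue for E4 and red for E5, circles for replicate 1 and squares for replicate 2. Letters tell apart regions of one gene in order of position. In every row both E5 libraries lie on the same side of both E4 libraries, which the rule for choosing these regions required.

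The sex chromosomes were reported apart because the pools differed in them. The main fit and its adjusted p took in all regions, so the DARs of all regions include those on Z. Female birds carry a Z and a W and males carry 2 Z, so libraries pooled from different numbers of females differ over the whole of these chromosomes. Relative to the autosomes, the median log2 level of Z was -0.10 and -0.41 in the E4 libraries and -0.84 and 0.10 in the E5 libraries. The median normalized count of W regions was 112 and 181 at E4 and 265 and 20.8 at E5. E5 RPE replicate 1 thus had the lowest Z and the highest W level, and E5 RPE replicate 2 the highest Z and the lowest W level. The median SD between E5 replicates was 0.63 on Z and 2.34 on W, against 0.12 on the autosomes.

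On Z 34 of 4454 regions rose and 12 fell (1.03%), and on W 0 of 203 were called. When each library was centred on its own Z median, an alternative chosen after the data were seen, 181 Z regions rose and 89 fell, or 6.06%, and 6.09% of autosomal regions were called. Without Z and W 5646 autosomal regions were called, against 3725 of the same 85166 regions when Z and W were in the fit, where all regions share 1 estimate of how variances are distributed. The largest rise on Z, chr Z:12955250-12956660, had 284 and 252 normalized counts at E4 and 951 and 1421 at E5 (log2 fold change 2.11, limma adjusted p = 0.0055). The E5 library with the lowest Z level had 951 and the one with the highest had 1421. With only the second E5 library kept the log2 fold change was 2.40, and with only the first kept it was 1.83. The region was chosen as the largest Z rise among DARs whose replicates did not overlap. The part of the sex of the pooled embryos in this rise was not tested. The largest fall, chr Z:48052900-48053320, went from 170 and 118 to 16.3 and 30.8.

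**Figure D5:**
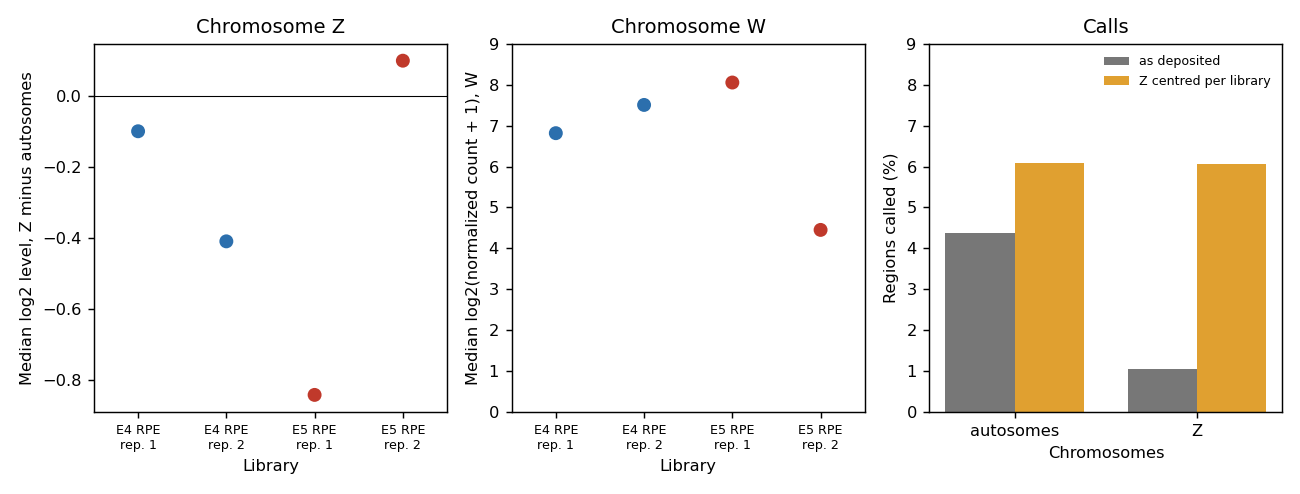
Left, median log2 level of Z regions minus that of autosomal regions in each developing library. Middle, median log2(normalized count + 1) of W regions, and right, percent of regions called on autosomes and on Z as deposited and after centring Z within each library, which moves Z from 1.03% to 6.06%.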

How the data were processed

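ATAC-seq was read from 4 developing RPE libraries, with 4 treated libraries in the same fit. The authors trimmed reads (Cutadapt, Trim Galore), aligned them to GRCg6a with Bowtie2 with more than 1 alignment allowed per read, and removed duplicates with Picard. Open regions were called in each library with HMMRATAC and merged with bedtools, mitochondrial regions were dropped, and featureCounts gave unstranded counts that DESeq2 normalized. Tool versions, a transposase shift and how multiply aligned reads were counted: not given in the sources used here, so reads of repeated sequence may sit at the wrong copy. The deposited signal is the normalized read count of each region. All values were whole multiples of 1 read within 1e-06, from which reads were recovered. Read totals are those within regions. Each limma p-value and SE rests on a spread pooled over the developing and treated groups, with 2 libraries per group. That spread was also moderated over all regions, so it is not the spread of the 2 libraries of a stage alone.

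Of 89824 rows 1 had no length and no read and was left out. Log2(normalized count + 1) was fitted with limma 3.58.1 (R 4.3.3), group means of 8 libraries, trended moderation and an adjusted p of 0.05 (Benjamini-Hochberg, all regions). Adding 1 understates changes of low regions. Scripts were tested on simulated data. Alternatives were pseudocounts of 0.5 and 10, a mean of at least 50, equal totals, quantile normalization, leaving out Z and W, only regions up to 2000 bp, the 4 developing libraries alone, a replicate block, edgeR 4.0.16 and DESeq2 1.42.0 on recovered reads, each library left out, and, chosen after seeing the data, the empty row kept and Z centred. Figures were drawn with matplotlib 3.10.9.

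Regions, classes and lists were chosen with earlier results of these data known. Named were, among DARs whose replicates did not overlap and whose higher mean was at least 100, the 12 largest rises and 12 largest falls with a gene symbol, the largest change per direction in each chromosome class and each width class above 1000 bp, and the top runs, and every DAR nearest to a listed gene. Single other DARs given, such as those near ABCG1, RCAN1 and ERG, were added after their values were seen or as markers. Nearest genes and features were positions taken from the study's supplementary annotation, and Ensembl identifiers were matched to symbols with RefSeq (GRCg7b). Coordinates are those of the deposited table, which does not state if starts count from 0 or 1.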

Additional observations from a re-analysis of the deposited data

Results flagged for a closer look

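In 3 of the named regions both treated E5 libraries moved away from both treated E4 libraries in the direction opposite to the developing libraries. The difference between the 2 stage changes was tested as an interaction in limma across all regions, and none of the 3 passed the threshold. Near SEMA3D, the region chr1:9004480-9004840 had a difference of 2.25 log2 units (adjusted p = 0.39), with treated E4 libraries at 32.4 and 38.2 normalized counts and treated E5 libraries at 44.1 and 42.5. Near TMPRSS15, the region chr1:101028750-101029350 differed by -2.13 log2 units (adjusted p = 0.41), with 30.4 and 38.9 against 23.9 and 19.8. The region chr7:5154310-5155030 differed by 1.40 log2 units (adjusted p = 0.37), with 1046 and 1031 against 1157 and 1233.8.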

How the results depend on the processing

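With all developing libraries in the fit, the direction of each of the 3771 DARs was kept in every alternative that gave it a value. This is little evidence of robustness. Filters, the replicate block and leaving out treated libraries do not alter a log2 fold change. The largest shift of the median, with equal totals, was -0.075, and every DAR changed by at least 0.44 log2 units. With 1 developing library left out a direction could not turn, since no DAR had overlapping replicates. The number called was 3771 (2542 higher at E5, 1229 higher at E4). It lay between 3034 with equal totals and 5646 without Z and W in the alternatives other than the replicate block, DESeq2 and a left-out library. DESeq2 called 8004 (4728 and 3276). The number higher at E4 was 2030 without Z and W and 1903 with Z centred in each library. With 1 library left out the calls ran from 0 to 4189, those higher at E5 from 0 to 2922 and those higher at E4 from 0 to 1451, where the lowest came without E4 RPE replicate 1 and the highest without a treated library. A stage left with 1 library was assumed to vary like the other groups. With the replicate number as a block limma called 7351 regions (4318 and 3033). The labels do not say if the numbers pair the samples. The replicate differences of E4 RPE and E5 RPE correlated at -0.05 over all regions and 0.05 without Z and W. Developing and treated libraries of 1 stage were not compared in this way, so pairing within a stage was not tested. With equal totals 62 of the 71 named regions were still called, and with the 4 developing libraries alone 66. The causes of these differences were not tested. With 2 libraries per stage and down to 34595299 reads in regions, small changes of weak regions may have gone uncalled, which was not tested.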
